A study of Homo sapiens with 12 samples.

Results

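The genes described here are 34 direct transcriptional targets of p53, chosen as a list of well-known members of that programme. Earlier results of these data were known when they were chosen. The counts below therefore describe the list and are no independent test of it. By role the genes were sorted into 8 arrest genes, 2 feedback genes, 7 metabolic genes, 4 repair genes and 13 death genes. A gene was kept when a probe named for it had a detection score above 0.95 on at least 3 of 12 Illumina bead arrays, and the probe with the highest mean stood for the gene. This left 32 of the 34 among the 12178 genes tested. BTG2 and FDXR had no named probe to which this rule could be applied and are not analysed here.

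p53 is a transcription factor that its E3 ligase MDM2 keeps at a low level by ubiquitination, and that DNA damage, ribosome stress and nutrient stress release from this control. Its targets stop the cell cycle through the CDK inhibitor p21, restrain mTORC1 and glycolysis, supply repair factors, and arm both the death receptor and the mitochondrial route to apoptosis. Some of its targets, MDM2 and the phosphatase gene PPM1D among them, switch p53 off again.

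All RNA came from 1 human neuroblastoma line, Tet21N, in which doxycycline turns off a transgene for N-Myc. The transiently transfected siRNA was either directed at MondoA (siMondoA), a nutrient-responsive transcription factor that pairs with MLX and is the product of MLXIP, or non-specific (siControl). Cells were held for 3 days with doxycycline at 1 microgram/ml (Myc off) or without it (Myc on). The 4 groups of 3 arrays were siMondoA with Myc off, siMondoA with Myc on, siControl with Myc off and siControl with Myc on. Every Myc-off sample also carried the drug, so the drug cannot be told apart from the loss of N-Myc. Whether the 3 arrays of a group came from separate cultures is not stated, and p-values therefore reflect a spread that may be technical.

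Promoter sequences were examined for the letters that p53 is known to bind, because many of these genes moved together. RefSeq (GRCh38.p14) promoters of 300 bases, 250 before and 50 after the gene start, were matched by symbol for 29 of the 34 genes. The p53 decamer consensus, which reads the same on both strands, was found in 4 of these 29 promoters and in 6.63% of all 27305 promoters of that length. The 150 bases before the start are shown for these 4 genes, with the decamer in capitals.
AEN (chr15:88621190-88621339, plus strand): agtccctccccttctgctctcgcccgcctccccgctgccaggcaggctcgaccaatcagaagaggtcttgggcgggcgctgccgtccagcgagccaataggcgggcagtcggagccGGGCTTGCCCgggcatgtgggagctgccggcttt
SESN1 (chr6:109008989-109009138, minus strand): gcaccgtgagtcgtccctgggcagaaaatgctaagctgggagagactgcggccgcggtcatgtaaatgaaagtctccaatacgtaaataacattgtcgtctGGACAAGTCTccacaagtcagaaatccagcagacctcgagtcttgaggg
RPS27L (chr15:63157478-63157627, minus strand): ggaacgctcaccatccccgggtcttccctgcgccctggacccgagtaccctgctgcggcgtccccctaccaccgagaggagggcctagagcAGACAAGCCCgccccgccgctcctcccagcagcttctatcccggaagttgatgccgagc
PLK2 (chr5:58460087-58460236, minus strand): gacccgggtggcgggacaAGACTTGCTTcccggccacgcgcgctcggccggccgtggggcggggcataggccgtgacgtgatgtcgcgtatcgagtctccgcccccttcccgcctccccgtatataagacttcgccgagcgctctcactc
The decamer ran from 34 to 25 bases before the start in AEN, from 49 to 40 in SESN1, from 59 to 50 in RPS27L and from 132 to 123 in PLK2. The pattern CATG, any 6 bases and CATG, on either strand, was in the TRIAP1 promoter alone among the 29, and in 0.399% of all promoters. In TRIAP1 it lay after the gene start, and this promoter held no match to the decamer. The E-box CACGTG, a motif of the Myc and MondoA families, was in 2 of the 29 (AEN and EDA2R) and in 7.27% of all. These matches describe the letters in this window and no binding. Sequence outside the window was not examined, so a gene without a match here may have one elsewhere.

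The arrays were of even quality. Between 18521 and 20726 probes were detected per array, and within a group the correlation between arrays was 0.986 to 0.992 over the genes tested. MLXIP was detected on 1 array and no MYCN probe on any, which leaves the labels unchecked by either gene. MYC, the gene of the related factor c-Myc, was higher with Myc off than with Myc on, by 1.00 ± 0.13 in siMondoA cells and 2.95 ± 0.13 in siControl cells, so "Myc off" refers to the transgene alone. With siMondoA MYC rose by 1.78 ± 0.13 with Myc on, and its change of -0.17 ± 0.13 with Myc off did not pass. TXNIP, which encodes the thioredoxin-interacting protein and is a direct MondoA target, stood at 6.67 ± 0.10 with siMondoA against 11.09 ± 0.14 with siControl when Myc was off, and at 7.96 ± 0.16 against 11.31 ± 0.05 when Myc was on (log2 level, SD, n = 3 each). Of the mesenchymal neuroblastoma markers 6 of 6 were tested. Of the adrenergic markers HAND2, GATA3 and ISL1 were tested (3 of 7), and the TH and DBH probes were detected on 0 arrays. The summed level of the mesenchymal markers differed between the groups, at 19500 to 20540 with siMondoA and Myc off, 21480 to 23550 with siMondoA and Myc on, 24650 to 24930 with siControl and Myc off and 16110 to 17220 with siControl and Myc on (linear scale). That of the 3 adrenergic markers was 1255 to 1437, 1092 to 1194, 1035 to 1073 and 917.7 to 1024 in the same order of groups. It was highest in the group where most p53 targets were highest. The markers within each sum did not move together. With siMondoA and Myc off HAND2 was called higher (0.67) and GATA3 lower (-0.61) than with siControl, and ISL1 (0.15) did not pass. Of the mesenchymal markers 2 were called higher and 2 lower there, beside 21.8% and 22% of all genes. Markers of other cell types were dim or at 0. LYZ (1 of 5 blood markers tested), PECAM1 (1 of 3 for endothelium) and EPCAM (1 of 3 for epithelium) were detected on 7, 4 and 4 arrays, and probes of PTPRC, CD3E, CDH5, VWF, CDH1 and KRT5 on 0. With siMondoA and Myc off LYZ and EPCAM (0.48 ± 0.16) were called higher and PECAM1 lower than with siControl. No siControl, Myc-off array detected LYZ and no siMondoA, Myc-off array detected PECAM1, so these sizes were not measured. A second EPCAM probe was at -0.18 with Myc off (limma, adjusted p = 0.474). None of these genes passed with Myc on, and LYZ passed in the interaction, also without a measured size. The part of these markers in the results below was not tested.

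Most of the p53 targets were higher with siMondoA than with siControl in each Myc state. With Myc off, 23 of the 32 genes were higher with siMondoA than with siControl, 5 were lower and 4 did not pass (limma, adjusted p under 0.05). Of all genes tested 43.8% were called in this comparison, 21.8% higher and 22% lower. With Myc on, 18 of the 32 were higher, 2 lower and 12 did not pass, where 24.8% of all genes were called, 12.4% higher and 12.5% lower. The median log2 change of the 32 genes was 0.93 with Myc off and 0.53 with Myc on, beside 0.03 and 0.03 for all genes. Under median scaling the genes called higher were again 23 and 18, where 13.8% and 21.3% of all genes were called higher. Levels below are normalized log2 intensities, and changes are log2 differences ± SE between groups of 3 arrays, with limma p-values adjusted over all genes tested. In bulk RNA a change in the level per cell and a change in the share of cells that express a gene cannot be told apart. The siMondoA and siControl arrays did not overlap for 29 of the 32 genes with Myc off, 23 higher and 6 lower, where this held for 52.3% of all genes (26.6% higher and 25.7% lower). With Myc on they did not overlap for 20, 18 higher and 2 lower, where this held for 40.4% of all genes (21.1% higher and 19.3% lower).

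The pair of knockdown comparisons contrasts different arrays. All arrays were normalized together and share a common estimate of the spread, so the comparisons are not independent. They called 17 genes higher in common, which is 17 of the 23 with Myc off and 17 of the 18 with Myc on. Of all genes 8.45% were called higher in both states, which is 38.7% of those higher with Myc off and 68.4% of those higher with Myc on. The remaining gene of the Myc-on set was PLK2, which was called lower with Myc off. CCNG1 and, by its brightest probe, ZMAT3 were called lower in both states. The plot of the share of genes called sets these counts beside all genes, and the plot of knockdown changes gives each gene.

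**Figure D1:**
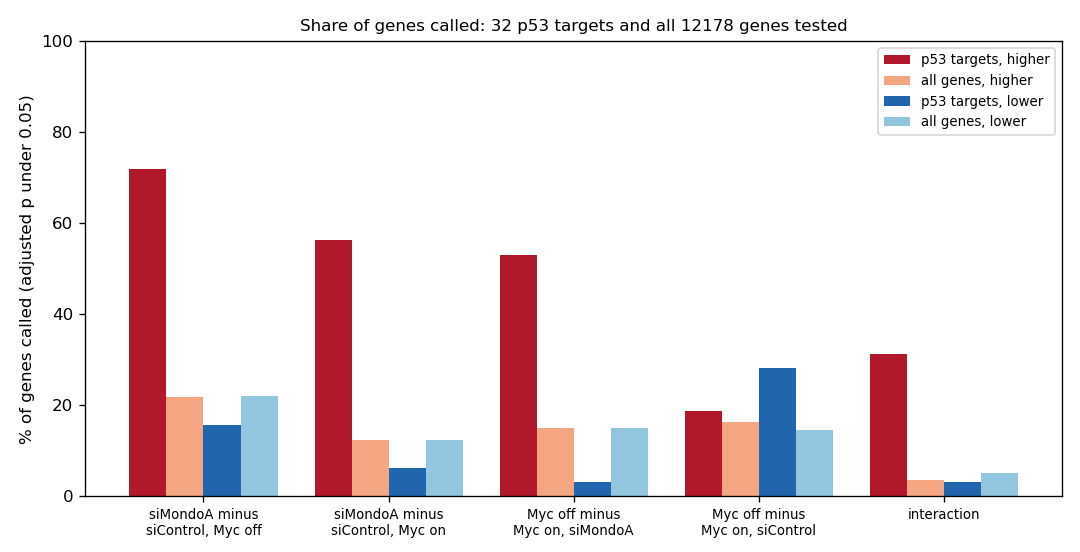
Bars give the percentage of genes called higher (red) or lower (blue) at an adjusted p under 0.05 in each comparison, in dark colours for the 32 p53 targets and in light colours for all 12178 genes tested. With siMondoA 71.9% of the targets were called higher with Myc off and 56.2% with Myc on, beside 21.8% and 12.4% of all genes.

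**Figure D2:**
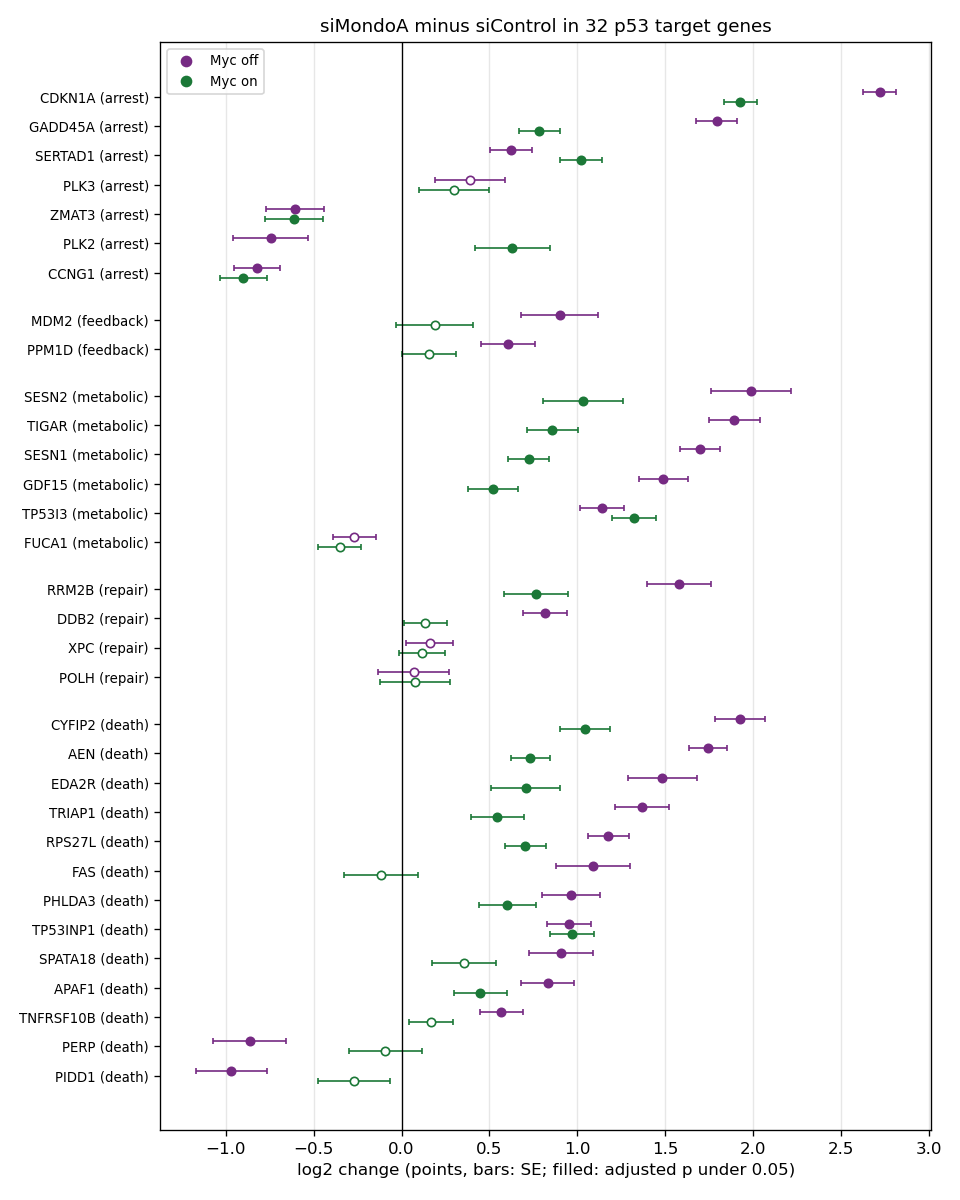
Points give the log2 change between siMondoA and siControl for each of the 32 genes, in purple with Myc off and in green with Myc on, and bars the SE (n = 3 arrays per group). Filled points passed an adjusted p of 0.05, and genes are grouped by role. Most points lie right of 0, with CDKN1A farthest at 2.72 with Myc off and 1.93 with Myc on.

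Among the arrest genes, CDKN1A, SERTAD1 and GADD45A were higher with siMondoA in both Myc states, while CCNG1 was lower in both. CDKN1A encodes p21, the CDK inhibitor through which p53 halts the cell cycle. Its log2 levels were 14.75, 14.66 and 14.66 with siMondoA and Myc off, 13.89, 13.85 and 13.85 with siMondoA and Myc on, 11.91, 12.02 and 11.97 with siControl and Myc off, and 11.974, 11.832 and 12.001 with siControl and Myc on. All siMondoA arrays lay above all siControl arrays, and the siControl arrays of the Myc states overlapped. The change with siMondoA was 2.72 ± 0.09 with Myc off, a 6.59-fold rise (adjusted p = 1.86e-09), and 1.93 ± 0.09 with Myc on, a 3.81-fold rise (adjusted p = 5.8e-08, SE, n = 3 per group). Its second probe was detected on all 6 siMondoA arrays and on 0 of the 6 siControl arrays. GADD45A, a growth arrest and DNA damage response gene, was at 10.57, 10.25 and 10.56 with siMondoA and Myc off, 9.89, 9.68 and 9.83 with siMondoA and Myc on, 8.62, 8.62 and 8.76 with siControl and Myc off, and 8.99, 8.96 and 9.08 with siControl and Myc on. Here too the siRNA groups were apart in each Myc state, and the highest arrays were those with siMondoA and Myc off. The rises were 3.47-fold with Myc off (1.79 ± 0.12) and 1.72-fold with Myc on (0.78 ± 0.12), and its second probe gave 1.34 and 0.70.

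SERTAD1, whose product binds CDK4, had log2 levels of 8.95, 9.35 and 9.08 with siMondoA and Myc off, 8.39, 8.31 and 8.23 with siMondoA and Myc on, 8.53, 8.51 and 8.49 with siControl and Myc off, and 7.20, 7.43 and 7.22 with siControl and Myc on. Its siControl arrays were higher with Myc off than with Myc on, unlike those of CDKN1A. With siMondoA it rose by 0.62 ± 0.12 with Myc off and by 1.02 ± 0.12 with Myc on. CCNG1, which encodes cyclin G1, an activator of the MDM2 arm of the feedback, was at 9.82, 9.52 and 9.91 with siMondoA and Myc off, 9.87, 10.05 and 10.28 with siMondoA and Myc on, 10.56, 10.59 and 10.57 with siControl and Myc off, and 11.04, 11.04 and 10.83 with siControl and Myc on. It ran against the list, with every siMondoA array below every siControl array of the same Myc state. It fell 1.77-fold with Myc off (adjusted p = 0.000315) and 1.87-fold with Myc on (adjusted p = 0.000463). PLK2, a polo-like kinase gene, was at 7.19, 6.84 and 6.40 with siMondoA and Myc off, 7.23, 7.34 and 7.17 with siMondoA and Myc on, 7.46, 7.22 and 7.98 with siControl and Myc off, and 6.37, 6.69 and 6.78 with siControl and Myc on. Its siMondoA arrays lay below the siControl arrays with Myc off and above them with Myc on. The change was -0.74 ± 0.21 with Myc off (adjusted p = 0.0128) and 0.63 ± 0.21 with Myc on (adjusted p = 0.0476). The Myc-on call was lost without any one of 8 arrays in turn (adjusted p 0.0285 to 0.157 over the 12). PLK3, a related kinase gene detected on 3 arrays, passed in no comparison.

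The feedback genes MDM2 and PPM1D were higher with siMondoA when Myc was off. MDM2, the p53 ubiquitin ligase, was dim, being detected on all 3 arrays with siMondoA and Myc off, on 2 of 3 with siMondoA and Myc on, on 1 of 3 with siControl and Myc off and on 2 of 3 with siControl and Myc on. Its levels were 5.90, 6.09 and 5.96 with siMondoA and Myc off, 4.97, 5.62 and 5.85 with siMondoA and Myc on, 5.32, 5.06 and 4.87 with siControl and Myc off, and 5.53, 5.43 and 4.92 with siControl and Myc on. The siRNA groups were apart with Myc off and overlapped with Myc on. The rise with Myc off was 1.87-fold (0.90 ± 0.22, adjusted p = 0.00483), and with Myc on the change of 0.19 ± 0.22 did not pass. PPM1D, which encodes the phosphatase WIP1 that dephosphorylates p53, was at 8.46, 8.23 and 8.64 with siMondoA and Myc off, 7.75, 7.52 and 7.80 with siMondoA and Myc on, 7.66, 7.95 and 7.89 with siControl and Myc off, and 7.83, 7.36 and 7.41 with siControl and Myc on. Its highest 3 values were those with siMondoA and Myc off. It rose by 0.61 ± 0.15 with Myc off, and the change of 0.16 ± 0.15 with Myc on did not pass. The difference between the Myc states did not pass for either gene (interaction 0.71 ± 0.31 for MDM2 and 0.45 ± 0.22 for PPM1D).

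Of the 6 metabolic genes tested, 5 rose with siMondoA in both Myc states and FUCA1 did not pass in either. Of all genes 8.45% were called higher in both states. The sestrins SESN1 and SESN2 restrain mTORC1 and protect against oxidants. SESN1 was at 8.61, 8.45 and 8.44 with siMondoA and Myc off, 8.09, 8.08 and 7.93 with siMondoA and Myc on, 6.92, 6.75 and 6.74 with siControl and Myc off, and 7.26, 7.48 and 7.18 with siControl and Myc on. The siMondoA arrays lay above the siControl arrays in both Myc states, and the lowest 3 values were those with siControl and Myc off. It rose 3.24-fold with Myc off (1.70 ± 0.11, adjusted p = 3.42e-07) and 1.65-fold with Myc on (0.72 ± 0.11, adjusted p = 0.000718). SESN2 was at 7.22, 8.02 and 7.50 with siMondoA and Myc off, 6.19, 6.30 and 6.36 with siMondoA and Myc on, 5.83, 5.24 and 5.71 with siControl and Myc off, and 5.48, 4.81 and 5.48 with siControl and Myc on. It was detected on 11 arrays, the exception being in the siControl, Myc-on group, and its groups did not overlap between the siRNAs. The change was 1.99 ± 0.23 with Myc off and 1.03 ± 0.23 with Myc on.

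TIGAR, the fructose bisphosphatase that slows glycolysis, was at 9.42, 9.37 and 9.32 with siMondoA and Myc off, 9.01, 8.67 and 8.72 with siMondoA and Myc on, 7.66, 7.64 and 7.13 with siControl and Myc off, and 7.92, 7.91 and 7.99 with siControl and Myc on. As for SESN1, the siMondoA arrays were above all siControl arrays and the lowest values were those with siControl and Myc off. It rose 3.71-fold with Myc off (1.89 ± 0.14) and 1.81-fold with Myc on (0.86 ± 0.14). GDF15, a secreted stress cytokine of the TGF-beta family, was at 12.10, 12.25 and 12.20 with siMondoA and Myc off, 11.63, 11.15 and 11.25 with siMondoA and Myc on, 10.73, 10.81 and 10.55 with siControl and Myc off, and 10.98, 10.86 and 10.63 with siControl and Myc on. Its arrays with siMondoA and Myc off were the highest, and its siControl arrays overlapped between the Myc states. The change was 1.49 ± 0.14 with Myc off (adjusted p = 5e-06) and 0.52 ± 0.14 with Myc on (adjusted p = 0.0176). The Myc-on call was lost without siMondoA Myc-on replicate 1 (adjusted p = 0.0726) and without siControl Myc-on replicate 3 (0.0737).

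TP53I3 encodes a quinone oxidoreductase, and its levels were 9.70, 10.02 and 9.64 with siMondoA and Myc off, 8.78, 8.69 and 8.74 with siMondoA and Myc on, 8.58, 8.72 and 8.65 with siControl and Myc off, and 7.60, 7.38 and 7.26 with siControl and Myc on. They were lowest with siControl and Myc on and highest with siMondoA and Myc off, and the remaining groups overlapped between these. It rose by 1.14 ± 0.13 with Myc off and 1.32 ± 0.13 with Myc on, but its second probe, detected on 7 arrays, gave 0.03 and 0.47 and passed in neither state. FUCA1, the lysosomal fucosidase gene, was at 9.91, 9.77 and 9.90 with siMondoA and Myc off, 8.78, 8.72 and 9.13 with siMondoA and Myc on, 10.11, 10.06 and 10.22 with siControl and Myc off, and 9.31, 9.26 and 9.12 with siControl and Myc on. Its levels separated by Myc state, being higher with Myc off under both siRNAs. The knockdown changes of -0.27 ± 0.12 and -0.35 ± 0.12 did not pass (adjusted p = 0.0951 and 0.0524).

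The repair genes were divided. RRM2B, the p53-inducible ribonucleotide reductase subunit that supplies nucleotides for repair, was at 7.43, 7.74 and 7.77 with siMondoA and Myc off, 6.75, 6.65 and 7.22 with siMondoA and Myc on, 6.36, 5.90 and 5.95 with siControl and Myc off, and 5.92, 6.03 and 6.36 with siControl and Myc on. Its siMondoA arrays were above all siControl arrays in both Myc states. It rose 2.99-fold with Myc off (1.58 ± 0.18) and 1.7-fold with Myc on (0.77 ± 0.18), and its second probe gave 1.72, which passed, and 0.66, which did not (adjusted p = 0.101). DDB2, the damage sensor of nucleotide excision repair, was at 6.99, 7.05 and 6.89 with siMondoA and Myc off, 6.60, 7.07 and 6.94 with siMondoA and Myc on, 6.18, 6.22 and 6.08 with siControl and Myc off, and 6.82, 6.69 and 6.70 with siControl and Myc on. The arrays with siControl and Myc off were below all others. The knockdown change was 0.82 ± 0.12 with Myc off (adjusted p = 0.000186) and 0.14 ± 0.12 with Myc on, which did not pass. XPC, another damage recognition factor gene, was at 0.16 ± 0.13 and 0.12 ± 0.13, and POLH, which encodes the bypass polymerase eta, at 0.07 ± 0.20 and 0.08 ± 0.20, with Myc off and on in that order. Neither passed in any comparison.

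**Figure D3:**
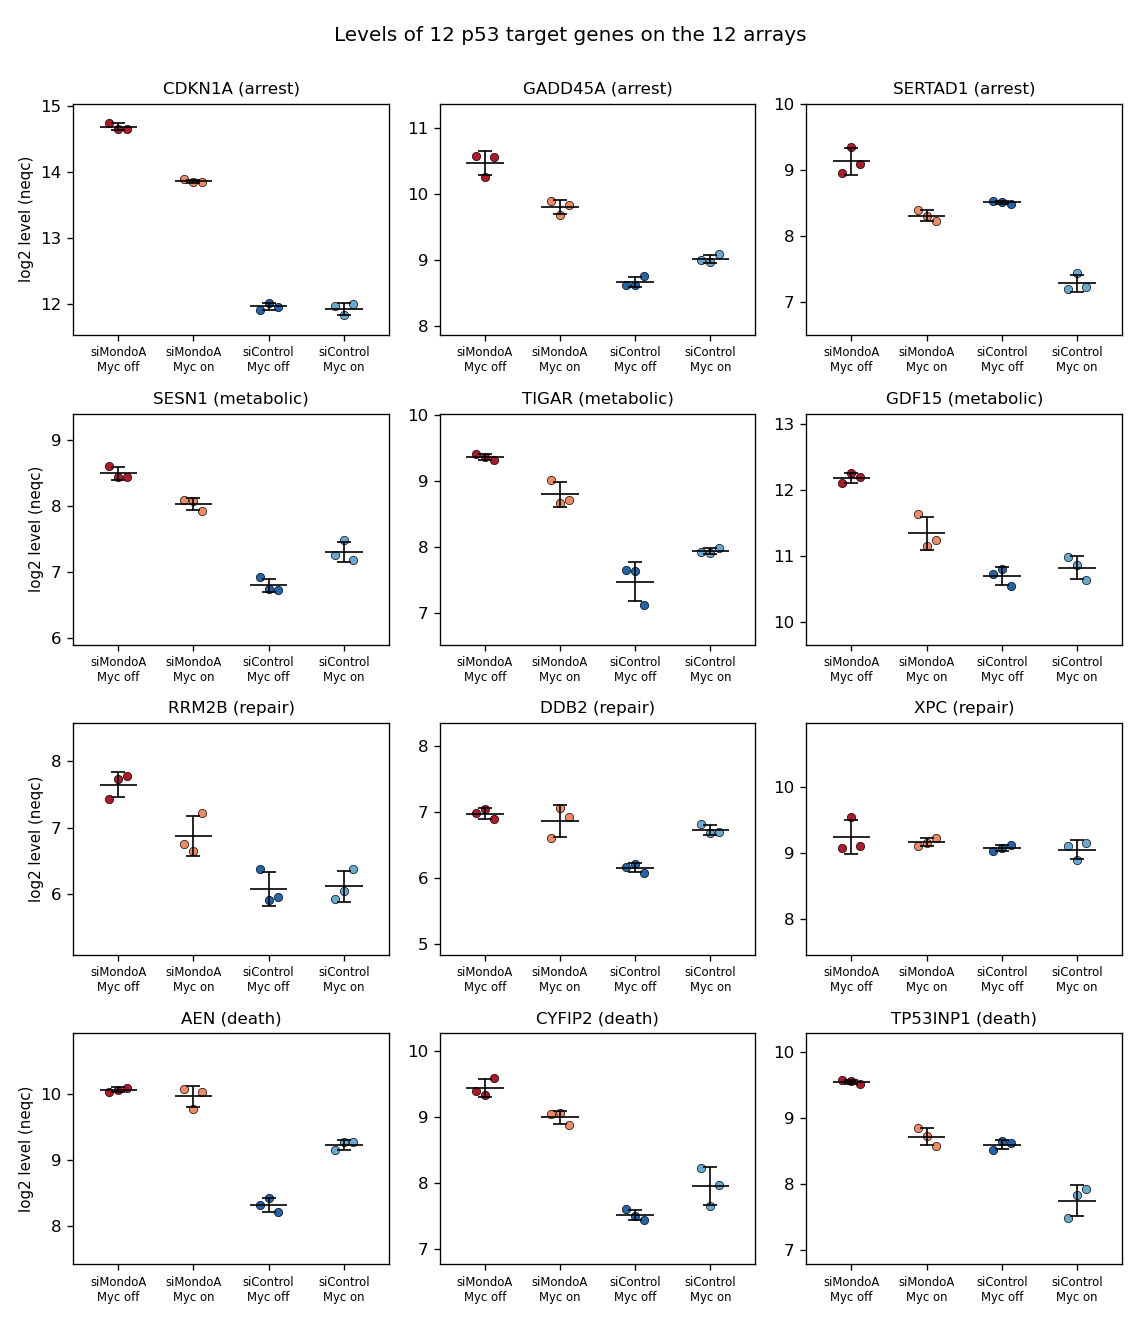
Each panel shows the normalized log2 level of 1 gene on all 12 arrays (points), with the mean and SD of each group of 3 (lines). All panels span 3.5 log2 units, and the groups run from siMondoA with Myc off at the left to siControl with Myc on at the right. The siMondoA arrays of CDKN1A lie at 13.85 to 14.75 and its siControl arrays at 11.83 to 12.02, while XPC shows no such gap.

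Of the 13 death genes, 11 rose with siMondoA when Myc was off, PIDD1 and PERP fell, and all 13 passed. Of all genes 21.8% were called higher and 22% lower there. When Myc was on, 8 rose and 5 did not pass, beside 12.4% of all genes called higher and 12.5% lower. AEN, an apoptosis-enhancing nuclease gene whose promoter decamer is shown above, was at 10.02, 10.06 and 10.09 with siMondoA and Myc off, 10.08, 9.77 and 10.03 with siMondoA and Myc on, 8.32, 8.42 and 8.20 with siControl and Myc off, and 9.14, 9.26 and 9.27 with siControl and Myc on. The siMondoA arrays overlapped between the Myc states, while the siControl arrays with Myc off were the lowest. It rose 3.35-fold with Myc off (1.74 ± 0.11, adjusted p = 2.04e-07) and 1.66-fold with Myc on (0.73 ± 0.11, adjusted p = 0.000531), and its second probe gave 1.77 and 0.87. CYFIP2, a p53-inducible FMRP interactor gene, was at 9.40, 9.34 and 9.60 with siMondoA and Myc off, 9.05, 9.07 and 8.88 with siMondoA and Myc on, 7.61, 7.51 and 7.45 with siControl and Myc off, and 8.23, 7.66 and 7.98 with siControl and Myc on. Its siMondoA arrays all exceeded its siControl arrays. The change was 1.93 ± 0.14 with Myc off and 1.04 ± 0.14 with Myc on, and a second probe gave 1.93 and 1.44.

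TRIAP1, a small mitochondrial lipid-transfer protein gene that favours survival, was at 10.44, 10.57 and 10.33 with siMondoA and Myc off, 10.11, 10.07 and 10.25 with siMondoA and Myc on, 8.80, 9.47 and 8.96 with siControl and Myc off, and 9.56, 9.69 and 9.55 with siControl and Myc on. Every siMondoA array was above every siControl array. It rose by 1.37 ± 0.15 with Myc off and 0.55 ± 0.15 with Myc on. RPS27L, a ribosomal protein paralog gene whose product affects MDM2, was at 13.21, 13.39 and 13.03 with siMondoA and Myc off, 12.87, 12.83 and 13.03 with siMondoA and Myc on, 12.12, 12.01 and 11.96 with siControl and Myc off, and 12.11, 12.28 and 12.22 with siControl and Myc on. Its levels also separated fully by siRNA. It rose by 1.18 ± 0.12 with Myc off and 0.70 ± 0.12 with Myc on. EDA2R, a TNF receptor family gene, was at 6.98, 6.65 and 7.20 with siMondoA and Myc off, 6.02, 6.44 and 5.99 with siMondoA and Myc on, 5.51, 5.48 and 5.38 with siControl and Myc off, and 5.54, 5.77 and 5.02 with siControl and Myc on. It was detected on 2 of the 3 arrays with siControl and Myc on and on all 9 others, and its siRNA groups did not overlap. The changes were 1.48 ± 0.20 and 0.71 ± 0.20 in the same order.

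TP53INP1, a stress-induced gene that links p53 to autophagy and death, was at 9.57, 9.55 and 9.51 with siMondoA and Myc off, 8.85, 8.72 and 8.58 with siMondoA and Myc on, 8.52, 8.64 and 8.62 with siControl and Myc off, and 7.48, 7.83 and 7.92 with siControl and Myc on. As for TP53I3, the lowest arrays were those with siControl and Myc on and the highest those with siMondoA and Myc off. The knockdown change was 0.95 ± 0.13 with Myc off and 0.97 ± 0.13 with Myc on, and the second probe gave 0.94 and 0.86. PHLDA3, an inhibitor of Akt, was at 9.80, 9.93 and 9.81 with siMondoA and Myc off, 8.91, 8.76 and 8.71 with siMondoA and Myc on, 8.77, 8.96 and 8.91 with siControl and Myc off, and 8.42, 8.42 and 7.73 with siControl and Myc on. The lowest array was 1 of the 3 with siControl and Myc on. It rose by 0.96 ± 0.16 with Myc off and by 0.60 ± 0.16 with Myc on. APAF1, the scaffold of the apoptosome, was at 8.01, 7.79 and 7.75 with siMondoA and Myc off, 7.69, 7.36 and 7.76 with siMondoA and Myc on, 6.89, 6.89 and 7.27 with siControl and Myc off, and 7.21, 6.96 and 7.30 with siControl and Myc on. Its siRNA groups were apart in both Myc states. The change was 0.83 ± 0.15 with Myc off and 0.45 ± 0.15 with Myc on (limma, adjusted p = 0.046). A second, dimmer probe was detected on 7 arrays, but on 0 of 3 with siMondoA and Myc off. It was called lower with Myc off (adjusted p = 0.0083), by a size that was not measured, and was at 0.35 with Myc on without passing. With the mean of both probes, which takes in these undetected levels, the Myc-off change was 0.16 (adjusted p = 0.317). The Myc-on call of the brightest probe was lost without any one of 9 arrays in turn.

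The death receptor genes FAS and TNFRSF10B, which encode the receptors of FAS ligand and TRAIL, passed with Myc off. FAS was at 6.29, 5.36 and 5.33 with siMondoA and Myc off, 5.06, 4.91 and 5.24 with siMondoA and Myc on, 4.70, 4.54 and 4.48 with siControl and Myc off, and 5.09, 5.22 and 5.25 with siControl and Myc on. It was detected on 3, 1, 0 and 2 of 3 arrays in that order of groups, so its level with siControl and Myc off is a bound. It was at least 1.48-fold higher with siMondoA when Myc was off (adjusted p = 0.0011), and the change with Myc on was -0.12 ± 0.21 without passing. TNFRSF10B rose by 0.57 ± 0.12 with Myc off and was at 0.17 ± 0.12 with Myc on without passing. Its other probes disagreed on which changes passed. One gave 1.14 with Myc off and 0.49 with Myc on, and both passed (adjusted p = 0.0484 with Myc on). The remaining probe gave 0.31 with Myc off and 0.73 with Myc on, and neither passed. SPATA18, a mitochondrial quality control gene, was at 6.44, 6.24 and 6.26 with siMondoA and Myc off, 5.63, 5.84 and 5.78 with siMondoA and Myc on, 5.70, 5.48 and 5.04 with siControl and Myc off, and 5.77, 5.21 and 5.20 with siControl and Myc on. Its siRNA groups were apart with Myc off only, and 2 of the 3 arrays detected it in each siControl group. It rose by 0.91 ± 0.18 with Myc off, and the change of 0.36 ± 0.18 with Myc on did not pass.

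PIDD1, the core of the caspase-2 activating platform, was at 5.84, 6.16 and 6.12 with siMondoA and Myc off, 6.27, 6.40 and 6.31 with siMondoA and Myc on, 7.02, 7.10 and 6.90 with siControl and Myc off, and 7.19, 6.18 and 6.42 with siControl and Myc on. Its siMondoA arrays lay below its siControl arrays with Myc off. It fell 1.96-fold there (adjusted p = 0.002), and the change of -0.27 ± 0.20 with Myc on did not pass. PERP, a desmosomal membrane protein gene, was at 4.73, 4.62 and 4.84 with siMondoA and Myc off, 5.09, 5.55 and 5.82 with siMondoA and Myc on, 5.18, 5.89 and 5.71 with siControl and Myc off, and 5.37, 5.53 and 5.83 with siControl and Myc on. It was not above background on any array with siMondoA and Myc off, and was at least 1.33-fold lower there than with siControl (adjusted p = 0.0045). With Myc on its change was -0.09 ± 0.21 and did not pass.

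ZMAT3, which encodes an RNA-binding zinc finger protein of the arrest arm, gave opposite answers from its 3 detected probes, each detected on all 12 arrays. The brightest, which stands for the gene above, was at 11.76, 12.06 and 11.74 with siMondoA and Myc off, 11.71, 11.98 and 12.16 with siMondoA and Myc on, 12.20, 12.39 and 12.80 with siControl and Myc off, and 12.61, 12.51 and 12.57 with siControl and Myc on. On it the siMondoA arrays lay below the siControl arrays of the same Myc state. Its log2 change was -0.61 ± 0.16 with Myc off and -0.61 ± 0.16 with Myc on, lower in both. A probe named through another transcript record of the gene read 10.91, 10.95 and 10.96 with siMondoA and Myc off, 10.02, 10.11 and 10.20 with siMondoA and Myc on, 9.60, 9.48 and 9.23 with siControl and Myc off, and 9.64, 9.48 and 9.68 with siControl and Myc on. That probe rose by 1.51 ± 0.12 with Myc off (adjusted p = 2.42e-06) and by 0.51 ± 0.12 with Myc on (adjusted p = 0.0131), and so moved as SESN1 and TIGAR did. The remaining probe rose by 0.97 ± 0.17 with Myc off (adjusted p = 0.000737) and was at 0.32 ± 0.17 with Myc on without passing. With the mean of the 3 probes the gene was at 0.62 with Myc off (adjusted p = 0.000965) and 0.07 with Myc on (0.708), so the direction reported for ZMAT3 depends on the probe.

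**Figure D4:**
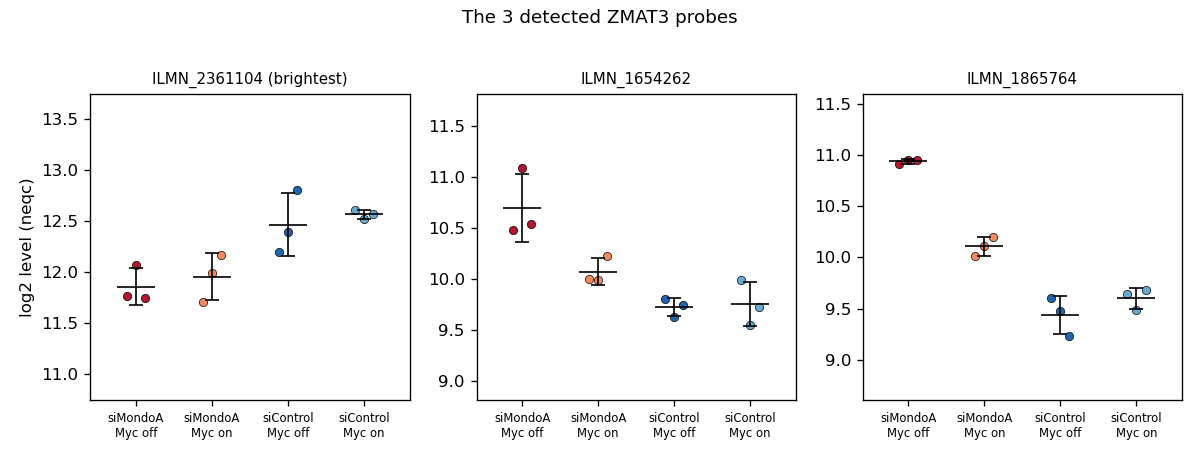
Each panel shows 1 of the 3 ZMAT3 probes on the 12 arrays (points, normalized log2 level; lines give the mean and SD of each group of 3), over an equal span of 3 log2 units. The brightest probe is lower with siMondoA than with siControl, and the other probes are higher with siMondoA and Myc off than in any other group.

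When N-Myc was switched off, the p53 targets that passed rose in siMondoA cells, with 1 exception, and went both ways in siControl cells. In siMondoA cells 17 of the 32 genes were higher with Myc off than with Myc on, 1 (PERP) was lower and 14 did not pass, where 30% of all genes were called, 15.1% higher and 14.9% lower. In siControl cells 6 were higher, 9 lower and 17 did not pass, where 30.9% of all genes were called, 16.3% higher and 14.6% lower. The median log2 change was 0.51 in siMondoA cells and -0.01 in siControl cells, beside 0.02 and 0.01 for all genes. Among the 32 genes the highest group mean was that of siMondoA with Myc off in 25, a share that was not computed for all genes. The Myc-off and Myc-on arrays did not overlap for 22 of the 32 genes in siMondoA cells, 20 higher and 2 lower, where this held for 41.8% of all genes (21.3% higher and 20.5% lower). In siControl cells they did not overlap for 15, 6 higher and 9 lower, where this held for 45% of all genes (23.6% higher and 21.5% lower).

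The genes that rose with Myc off in siMondoA cells included SESN2 (2.45-fold, 1.29 ± 0.23), PHLDA3 (2.07-fold, 1.05 ± 0.16), TP53I3 (2.07-fold, 1.05 ± 0.13) and FUCA1 (1.97-fold, 0.98 ± 0.12). GDF15 rose by 0.84 ± 0.14 and CDKN1A by 0.82 ± 0.09, whereas in siControl cells their changes of -0.13 ± 0.14 and 0.03 ± 0.09 did not pass. The genes lower with Myc off in siControl cells were AEN (-0.91 ± 0.11), FAS (at least 1.07-fold lower), DDB2 (-0.57 ± 0.12), TRIAP1 (-0.52 ± 0.15), SESN1 (-0.51 ± 0.11), TIGAR (-0.47 ± 0.14), CYFIP2 (-0.44 ± 0.14), CCNG1 (-0.39 ± 0.13) and GADD45A (-0.35 ± 0.12). The genes higher there were SERTAD1 (1.22 ± 0.12), TP53I3 (1.23 ± 0.13), PLK2 (0.94 ± 0.21), FUCA1 (0.90 ± 0.12), TP53INP1 (0.85 ± 0.13) and PHLDA3 (0.69 ± 0.16). SERTAD1, TP53I3, PHLDA3 and TP53INP1 were higher in all 4 pairwise comparisons. GADD45A, SESN1, TIGAR and CYFIP2 were called lower with Myc off in siControl cells and higher with Myc off in siMondoA cells, as the plot of changes by Myc state shows. The share of all genes with either pattern was not computed. Under median scaling the siControl calls of GADD45A, SESN1, TIGAR and CYFIP2 were all lost (adjusted p 0.146 to 0.355). The siMondoA rises of SESN1, TIGAR and CYFIP2 were lost too (adjusted p 0.133 to 0.307), and that of GADD45A was kept. With quantile normalization the second GADD45A probe was at -0.03 in siControl cells (adjusted p = 0.91). The second CYFIP2 probe was at -0.18 in siControl cells (adjusted p = 0.652) and 0.31 in siMondoA cells (0.408).

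The Myc comparisons moved with the scaling of the arrays. When the arrays were scaled by their medians and not by quantiles, the median of all genes lay at -0.13 in siMondoA cells and 0.11 in siControl cells. The genes called higher with Myc off in siMondoA cells then numbered 11 in place of 17, and those called lower in siControl cells 2 in place of 9, where 6.15% and 6.36% of all genes were called in those directions. The siControl count of 9 also fell to between 3 and 5 without any one of the 6 siControl arrays.

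**Figure D5:**
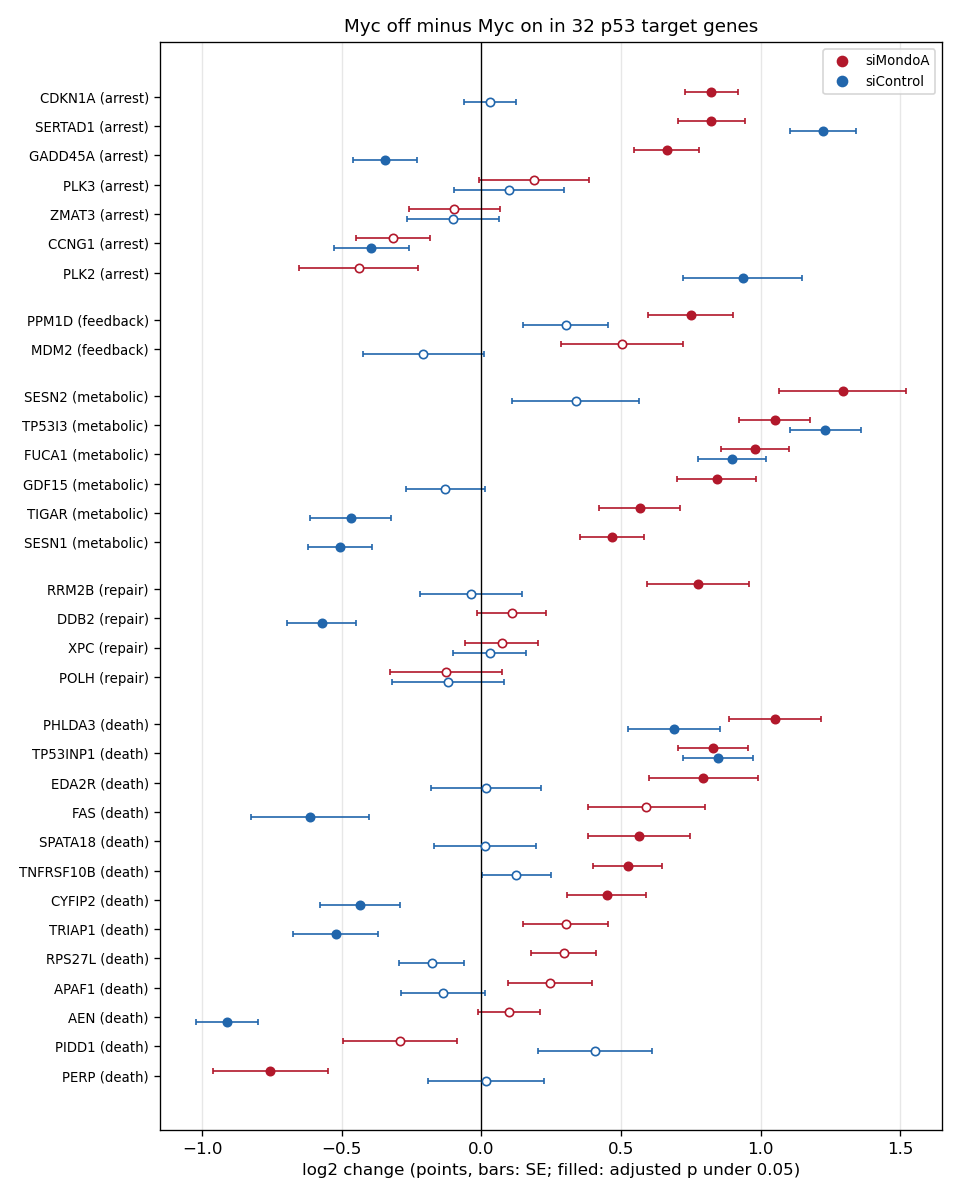
Points give the log2 change between Myc off and Myc on for each of the 32 genes, in red in siMondoA cells and in blue in siControl cells, and bars the SE (n = 3 arrays per group). Filled points passed an adjusted p of 0.05. GADD45A, SESN1, TIGAR and CYFIP2 lie right of 0 in red and left of 0 in blue, while SERTAD1, TP53I3, PHLDA3 and TP53INP1 lie right of 0 in both.

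The interaction tested whether the knockdown change differed between the Myc states. It was above 0 for 10 of the 32 genes and below 0 for PLK2, and 21 did not pass, where 8.7% of all genes were called, 3.55% above 0 and 5.15% below. The median over the 32 genes was 0.46, beside -0.00 for all genes. TIGAR (1.03 ± 0.20), AEN (1.01 ± 0.16, adjusted p = 0.00221), GADD45A (1.01 ± 0.16), SESN1 (0.97 ± 0.16) and GDF15 (0.97 ± 0.20) had larger differences above 0 than CYFIP2 (0.88 ± 0.20), TRIAP1 (0.82 ± 0.22), CDKN1A (0.79 ± 0.13) and DDB2 (0.68 ± 0.17). FAS was called too, but its size was not measured, since no array with siControl and Myc off detected it. PLK2 was at -1.38 ± 0.30 (adjusted p = 0.0155). Genes such as TP53INP1 (-0.02 ± 0.18), TP53I3 (-0.18 ± 0.18) and RPS27L (0.47 ± 0.16) did not pass. These values are from the brightest probes, and the order depends on the probe. The second CDKN1A probe, which no siControl array detected, gave 2.11 (limma, adjusted p = 0.00163), and the second AEN probe 0.90 (0.0409). The second probes of GADD45A (0.64, adjusted p = 0.0702) and CYFIP2 (0.49, 0.451) did not pass. That of APAF1, which no array with siMondoA and Myc off detected, was called below 0 (fitted value -0.86, limma, adjusted p = 0.0206). Its brightest probe was not called. Under median scaling the median of all genes was at -0.27, and 3 genes (GADD45A, GDF15 and FAS) were called above 0, where 0.706% of all genes were, and 3 below 0.

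Some calls rested on single arrays. With Myc off, 27 of the 28 knockdown calls held when any 1 of the 12 arrays was left out, PLK2 being the exception (adjusted p up to 0.0618). With Myc on, 13 of 20 held, and PLK2, ZMAT3, GDF15, APAF1, PHLDA3, EDA2R and TRIAP1 each lost the call without at least 1 array (highest adjusted p 0.16, for APAF1). Of the interaction calls 8 of 11 held, the exceptions being DDB2, FAS and TRIAP1 (highest adjusted p 0.0803, for TRIAP1). For the Myc comparison 15 of 18 calls held in siMondoA cells, without PERP, CYFIP2 and SPATA18, and 9 of 15 in siControl cells, without CCNG1, GADD45A, TIGAR, FAS, CYFIP2 and TRIAP1.

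Further genes of the pathway were read from lists. Of 25 regulators of p53, 20 were tested. With siMondoA 3 of them were higher and 3 lower with Myc off, beside 21.8% and 22% of all genes, and 3 were higher and 2 lower with Myc on, beside 12.4% and 12.5%. MDM4, the inhibitory partner of MDM2, did not pass (-0.21 ± 0.21 and -0.33 ± 0.21). HIPK2, a kinase that phosphorylates p53, rose by 0.76 ± 0.11 with Myc off and 0.74 ± 0.11 with Myc on, and COP1, a further ubiquitin ligase of p53, by 0.63 ± 0.14 with Myc off (0.28 ± 0.14 with Myc on, not passing). PPP1R13B, which encodes the p53 cofactor ASPP1, was at -0.72 ± 0.19 and -0.75 ± 0.19, lower in both. TP53BP1, a double-strand break repair factor gene, was at -0.63 ± 0.10 with Myc off and did not pass with Myc on.

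Of 30 other p53 targets, 25 were tested. With siMondoA 9 were higher and 2 lower with Myc off, and 7 were higher and 2 lower with Myc on, beside 21.8% and 22% of all genes with Myc off and 12.4% and 12.5% with Myc on. Their median log2 changes were 0.33 and 0.22. TGFA, an EGF receptor ligand gene, rose by 1.82 ± 0.18 and 1.84 ± 0.18 in the same order, BLOC1S2, which encodes a lysosome-positioning subunit, by 1.56 ± 0.17 and 0.75 ± 0.17, and DRAM1, a lysosomal regulator of autophagy, by 1.28 ± 0.12 and 0.64 ± 0.12. ALDH4A1, a mitochondrial proline catabolism gene named after its values were seen, was lower in both states (-0.77 ± 0.18 and -0.83 ± 0.18).

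The cell cycle genes that p21 silences through the DREAM complex were read beside CDKN1A. Of 12 tested, 1 was higher and 4 lower with siMondoA when Myc was off, beside 21.8% and 22% of all genes. When Myc was on, 2 were higher and 0 lower by limma (1 lower at an unadjusted p under 0.05), beside 12.4% and 12.5% of all genes. CDC25C, a phosphatase that activates CDK1, was at -1.69 ± 0.16 with Myc off and -0.47 ± 0.16 with Myc on, where it did not pass. The mitotic kinase gene PLK1 rose by 0.85 ± 0.24 with Myc on and was at -0.09 ± 0.24 with Myc off without passing, and CDC25A rose by 0.62 ± 0.11 with Myc off. With Myc off against Myc on, 9 of the 12 were lower in siMondoA cells and 6 in siControl cells, beside 14.9% and 14.6% of all genes, with medians of -0.89 and -0.40.

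SESN2 and GDF15 are also known targets of ATF4, so ATF4 and other genes of its stress response were read beside them. Of 7 tested, ATF4 included, 1 was higher and 3 lower with siMondoA when Myc was off, and 0 higher and 2 lower when Myc was on by limma (0 higher at an unadjusted p under 0.05). Of all genes 21.8% were higher and 22% lower with Myc off, and 12.4% and 12.5% with Myc on. ASNS, the asparagine synthetase gene, was at -1.28 ± 0.13 and -0.81 ± 0.13, and DDIT4, an inhibitor of mTORC1, at -0.72 ± 0.12 and -0.44 ± 0.12, lower in both. ATF3 rose by 0.56 ± 0.20 with Myc off. Their part in the levels of SESN2 and GDF15 was not tested.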

How the data were processed

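RNA of 12 samples was measured on Illumina bead arrays. The authors deposited linear probe intensities per array, which still held their background and were not normalized, as their values show. The deposited detection score of each probe behaved as 1 minus a detection p-value. A second deposited table held log2 values, equal to the log2 of those intensities after quantile normalization (largest difference 5.33e-14). The submitters' processing notes name lumi.

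Of 47323 probes 10 had no values. Names came from the platform's annotation (30108 with 1 symbol, 8 with several, 17197 with none), updated by gene identifier to RefSeq symbols (30069 matched). Background correction and quantile normalization used neqc (limma 3.58.1, R 4.3.3, offset 16), with the negative controls estimated from detection p-values. Genes needed a detection score above 0.95 on at least 3 arrays and were read from the brightest such probe, which left 12178. One model with a mean per group was fitted to the 12 arrays by lmFit and eBayes, and p-values were Benjamini-Hochberg adjusted over all genes, with a threshold of 0.05. Other probes of a gene were read from the same model over all 22188 detected probes. The number of arrays limits the precision: log2 changes between a pair of groups had a median SE of 0.149 and the interaction 0.21. Where no array of a group detected a gene, its fold is a bound computed against the higher of its signal and the lowest detected signal on each array. The fit was tested on simulated data with independent noise and 200 genes changed. At 1 log2 unit it found 77% to 88% of changes between a pair of groups and 41% of interactions. At 0.5 log2 units these shares were 21% to 29% and 3%. A change that did not pass is therefore not shown to be absent.

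The members and lists were chosen with earlier results of these data known. Levels per array are given for members called in at least 1 comparison with a log2 change of 0.7 or more in either direction, and for those whose probes disagree. No 2 arrays held identical values. Alternatives were the deposited log2 values, median scaling, other filters, the mean of a gene's probes, 2-group fits, the replicate number as a block and leaving out each array.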

Additional observations from a re-analysis of the deposited data

Results flagged for a closer look

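The knockdown change differed between the Myc states for 11 of the 32 p53 targets by limma's interaction term, where 8.7% of all genes were called, 3.55% above 0. The term is given here as the log2 change with Myc off minus that with Myc on. It was 1.03 for TIGAR, 1.01 for GADD45A, 1.01 for AEN, 0.97 for SESN1, 0.97 for GDF15, 0.88 for CYFIP2, 0.82 for TRIAP1, 0.79 for CDKN1A, 0.68 for DDB2 and -1.38 for PLK2, with 3 arrays per group. The fitted value for FAS was 1.20, but no array with siControl and Myc off detected FAS, so this size was not measured. Under median scaling 3 of the 10 calls above 0 were kept (GADD45A, GDF15 and FAS). The second probes of GADD45A (0.64) and CYFIP2 (0.49) did not pass, while those of AEN (0.90) and CDKN1A (2.11) did.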

How the results depend on the processing

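The number of p53 targets called higher with siMondoA was 23 to 24 with Myc off and 13 to 18 with Myc on when each array was left out in turn, and stayed within 1.5 times the reported 23 and 18 under every other setting run (18 to 23 and 15 to 19). Left-out ranges of the other counts were 4 to 6 lower with Myc off and 1 to 3 lower with Myc on, 15 to 17 higher and 0 to 1 lower for Myc off against Myc on in siMondoA cells, 6 to 8 higher and 3 to 9 lower in siControl cells, and 7 to 11 above and 1 to 2 below 0 for the interaction. Median scaling gave 1 gene lower with siMondoA and Myc on (2 as reported), 11 higher (17) and 2 lower (1) for Myc off against Myc on in siMondoA cells, 2 lower (9) in siControl cells, and 3 above (10) and 3 below (1) 0 for the interaction; this scaling put the median of all genes at -0.06 with Myc off and 0.19 with Myc on in the knockdown comparisons, and higher genes made up 37.2% and 79.1% of all calls there in place of 49.9% and 49.7%. The share was 23.8% (50.3% as reported) in siMondoA cells and 74.4% (52.8%) in siControl cells for the Myc comparisons, and 5.92% (40.8%) for the interaction. In siMondoA cells the p53 targets lower with Myc off were 2 with the authors' deposited log2 values and 0 with detection on all 12 arrays, where PERP was not tested (limma; 2 at an unadjusted p under 0.05). The deposited values called 1695 genes in the interaction, against 1059. With the mean of detected probes ZMAT3 turned to 0.62 and 0.0712 in the knockdown comparisons and to 0.45 for Myc off against Myc on in siMondoA cells, and APAF1 lost its Myc-off knockdown call (0.16, adjusted p = 0.317). The cause was not tested for any of these. With the replicate number as a block, though same-numbered samples did not deviate together (correlations -0.0967 to 0.0835; 3 of 12 arrays correlated best with their own number), the genes higher with siMondoA were 23 with Myc off and 17 with Myc on, those higher with Myc off 17 and 6 in siMondoA and siControl cells, and those with an interaction above 0 were 10; PLK2 lost its Myc-on knockdown call (adjusted p = 0.0744) and CCNG1 its siControl Myc call (0.0574). Signal over background limits MDM2, FAS, PERP and PLK3, which were detected on 8, 6, 8 and 3 arrays.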
